A study of Homo sapiens with 8 samples.

Results

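Promoter signal for trimethylated lysine 9 of histone H3 (H3K9me3) was compared between migrated and non-migrated SiHa cells, an established cervical squamous carcinoma line. Of the 8 chromatin libraries of the series, 4 were H3K9me3 immunoprecipitations and were compared directly, 2 from migrated and 2 from non-migrated cells, chosen by the antibody and fraction in their labels. The other 4 were input chromatin, which had seen no antibody, and they entered only where stated. Cells were seeded in a transwell, a well whose porous floor cells can crawl through, and after 10 h those that had crossed and those that had not were collected separately. The labels name no genetic change and no agent in either fraction.

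Each replicate set held 1 migrated and 1 non-migrated library. Set 1 was made with an Illumina TruSeq kit and gel extraction, had many duplicate reads and was deduplicated; set 2, the second biological replicate, used an NEB Ultra kit and Ampure beads. The migrated library of set 1 carries 1 replicate number in its title and another in its description; its title was used. The 38157 promoter windows (36796 of them 2100 bases long, hg19) held 88028 and 984835 reads in the migrated libraries of sets 1 and 2, against 164766 and 1137376 in the non-migrated libraries. Windows without a read made up 30.5% and 4.02% of the migrated libraries and 16.1% and 3.08% of the non-migrated ones. The migrated library was the shallower of each pair, at 0.534 of the non-migrated depth in set 1 and 0.866 in set 2. Whether the cells are SiHa could not be checked from promoter reads of a histone mark. Each library is a population average, so fewer cells carrying the mark and less mark per cell cannot be told apart, and each value is a share of its library rather than an absolute amount of H3K9me3.

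H3K9me3 is a mark of heterochromatin, the compact and mostly silent form of chromatin. SUV39H1 and SUV39H2 write it at repeats near centromeres and SETDB1 writes it at transposons and other targets, where the co-repressor TRIM28 (KAP1) and zinc finger proteins with a KRAB domain bring it; the HP1 proteins CBX1, CBX3 and CBX5 bind the mark, and KDM4 demethylases remove it. Clusters of KRAB zinc finger genes on chromosome 19 and silenced alleles of imprinted genes are well known carriers of the mark.

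Among the 12 windows higher in migrated cells that are described individually below, those of KCNG2 and BARHL1 had an entry in the RefSeq promoter table. The annotated promoters of these genes are printed here. KCNG2 encodes a modifier subunit of voltage-gated potassium channels, and BARHL1 a homeobox transcription factor of the developing nervous system. The sequences span the annotated start, with each CpG dinucleotide, the target of DNA methylation, in capitals. They come from RefSeq on GRCh38.p14, where KCNG2 lies at chr18:79797688-79797987 and BARHL1 at chr9:132582356-132582655, both on the plus strand. The read windows are in hg19, and it was not checked whether these starts lie inside them. The printed bases and their CpG counts therefore need not be those of the DNA that was counted.
KCNG2: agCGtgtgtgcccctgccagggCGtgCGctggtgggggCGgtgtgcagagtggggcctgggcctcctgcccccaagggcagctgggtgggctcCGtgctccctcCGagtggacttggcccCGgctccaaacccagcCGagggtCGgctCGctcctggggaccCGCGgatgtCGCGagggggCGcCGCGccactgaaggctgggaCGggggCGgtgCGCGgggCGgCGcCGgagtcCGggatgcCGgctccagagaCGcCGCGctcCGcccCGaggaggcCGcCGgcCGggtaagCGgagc
BARHL1: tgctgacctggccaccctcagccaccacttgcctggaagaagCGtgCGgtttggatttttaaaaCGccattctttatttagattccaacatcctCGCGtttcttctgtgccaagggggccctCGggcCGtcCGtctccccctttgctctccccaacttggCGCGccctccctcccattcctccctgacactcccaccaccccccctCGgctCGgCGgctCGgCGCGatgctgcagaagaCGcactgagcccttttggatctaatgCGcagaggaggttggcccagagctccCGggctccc
The KCNG2 promoter holds 35 CpG, and 14.1% of 35116 RefSeq promoters of the same length hold as many or more. The BARHL1 promoter holds 19, reached by 42.9% of promoters, and the median promoter holds 14. The count is the same on both strands.

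The difference between the fractions that appeared in both sets was one of distribution. The promoters richest in H3K9me3 took a larger share of all promoter reads in migrated cells, and the poorest took a smaller share. To keep the ranking apart from the values compared, windows were ranked by H3K9me3 reads of the other set and cut into 10 groups of equal size. In set 1, ranked by set 2, the richest group held 30.5% of the migrated reads (95% Wilson interval 30.2 to 30.8) against 26.6% of the non-migrated reads (26.4 to 26.8). In set 2, ranked by set 1, it held 32.6% of the migrated reads (32.5 to 32.7) against 28.7% of the non-migrated reads (28.6 to 28.7). These are 1.15-fold and 1.14-fold larger shares, or log2 ratios of 0.201 ± 0.009 in set 1 and 0.186 ± 0.003 in set 2, where the errors and intervals cover counting only. With 2 libraries a side an exact permutation test of a single value cannot go below a two-sided p of 0.333. With the libraries taken as 2 pairs, it cannot go below 0.5. No test was therefore made of these shares.

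The ratio grew toward the top of the ranking. For the richest 100 windows it was log2 0.35 in set 1 and 0.31 in set 2, and for the richest 1% (382 windows) 0.29 and 0.28. The lower 50% of windows held a smaller share of the migrated than of the non-migrated reads, with log2 ratios of -0.15 in set 1 and -0.26 in set 2. In set 2 the ratio climbed through all 10 groups, with log2 -0.42 in the poorest and 0.19 in the richest. In set 1 the 7 poorest groups lay between -0.17 and -0.09, and only the richest 2 lay above 0, at 0.02 and 0.20. The input libraries, grouped in the same way, gave ratios between -0.06 and 0.05 in every group, and 0.05 and 0.03 in the richest group of sets 1 and 2. After subtraction of the input ratio, 0.15 remained in set 1 and 0.16 in set 2.

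**Figure D1:**
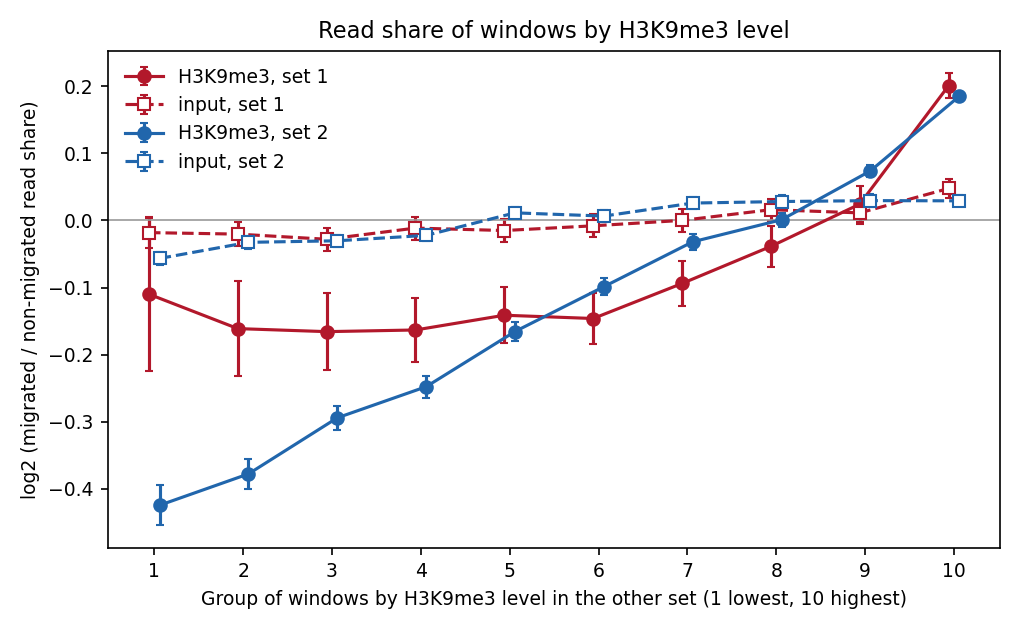
Log2 ratio of the share of promoter reads, migrated over non-migrated, against the level group of the window (10 groups, poorest to richest, ranked by H3K9me3 reads of the other replicate set), for H3K9me3 and for input in each set, with 95% counting intervals as bars. The H3K9me3 ratio ends at 0.20 in set 1 and 0.19 in set 2 in the richest group, while input stays between -0.06 and 0.05.

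This redistribution was not carried by a few chromosomes. Within each of 23 chromosomes (1 to 22 and X), the share of that chromosome's reads that fell in windows of the richest group was higher in migrated cells in both sets, with log2 ratios between 0.03 and 0.45 in set 1 and between 0.08 and 0.30 in set 2. Some lay within 2 counting errors of 0. In set 1 these were chromosomes 16 (0.03 ± 0.03), 22 (0.03 ± 0.08), 6 (0.11 ± 0.09) and 18 (0.23 ± 0.13), and in set 2 chromosome 13 (0.12 ± 0.07). The rankings of the 2 sets shared 2260 windows in their richest 10%, which is 59.2% of either. Among the richest windows, 61.5% lay above 0 in set 1 and 68.3% in set 2, beside 56.3% and 60.6% of all windows with a mean of at least 20 reads. The migrated libraries were also the shallower ones in both sets, and the part of depth in the ratio was not tested.

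No single promoter window passed the test between migrated and non-migrated cells. Limma was fitted to the 4 H3K9me3 libraries with the replicate set as a block, on log2 of reads per scaled library size, over the 22355 windows with enough reads. At a Benjamini-Hochberg adjusted p of 0.05 it called 0 windows higher (0% of those tested) and 0 lower (0%). The smallest adjusted p was 0.968. Before adjustment, 463 windows higher and 417 lower had a limma p under 0.05. Together they are a smaller share of the tested windows than the 0.05 expected with no difference. The balance of higher and lower windows depends on the scaling and the filter. It was 392 higher and 636 lower when scaled by total reads and 9 and 479 with the deposited constants. Among the 9447 windows with a mean of at least 20 reads it was 341 and 58. A quasi-Poisson model also called 0 in each direction, with 885 and 354 before adjustment. Limma without precision weights called 0 in each direction, with 528 and 412. With weights from the trend of the residual spread, limma called 13 windows higher (0.0582%) and 0 lower (1938 and 1005 before adjustment). On simulated libraries of these depths, which all had the same spread, that weighting called unchanged windows. It is given as an alternative only. The median tested window had an SE of 0.41 on the log2 scale.

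The windows named next had the smallest p values among those with at least 20 reads on average and a difference of like sign in sets 1 and 2. Their adjusted p in limma was 0.968 throughout, so they are described as values that did not pass. The CHAT window (chr10:50885697-50887797), named for the enzyme that makes acetylcholine, held 5 and 70 reads in the migrated libraries of sets 1 and 2, against 2 and 26 in the non-migrated libraries. Scaled to the promoter-window reads of each library (RPM), the level was 56.8 and 71.1 in migrated cells, against 12.1 and 22.9 in non-migrated cells. The log2 difference was 1.72 ± 0.35 (SE, n = 2 sets), the difference of set 1 resting on 5 reads against 2. The input of this window differed in the same direction, by 0.64 ± 0.40, and with input in the fit the value was 1.10 ± 0.54.

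The KCNG2 window (chr18:77621668-77623768) held 3 and 66 migrated reads against 5 and 23 non-migrated reads, a log2 difference of 1.58 ± 0.39. Nearly all of it came from set 2, where the log2 difference was 1.78, against 0.12 in set 1. The BARHL1 window (chr9:135455572-135457672) was the best covered of the 12, with 16 and 183 migrated reads against 11 and 117 non-migrated reads. Its level was 181.8 and 185.8 RPM in migrated cells, against 66.8 and 102.9 in non-migrated cells. The log2 difference was 1.00 ± 0.26, with 1.29 in set 1 and 0.92 in set 2. In set 2 its share was 1.81-fold larger in migrated cells, with an exact 95% counting interval of 1.42 to 2.30.

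The window of CADPS2, a protein of dense-core vesicle release (chr7:122060056-122062156), held 3 and 63 migrated reads against 2 and 27 non-migrated reads, a log2 difference of 1.47 ± 0.36. The window of OPCML, a cell adhesion protein of the IgLON family (chr11:132729872-132731972), held 8 and 49 migrated reads against 5 and 24 non-migrated reads, a log2 difference of 1.32 ± 0.36. The other higher windows were those of AL590726.1, RP11-149B9.2, RP5-921G16.1, C18orf34, AF121898.3, AC107057.2 and the 5.8S ribosomal RNA copy RN5-8S6 on chromosome Y, with log2 differences between 1.12 and 1.69. RN5-8S6 is a repeat copy, so its reads cannot be assigned with certainty, and a cervical line is not expected to carry chromosome Y. Its sets differed, with 55 migrated reads against 12 non-migrated reads in set 1 and 53 against 39 in set 2.

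The 12 lower windows held fewer reads, and in set 1 none held more than 3 reads in the migrated library. The BMP7 window (chr20:55839853-55841953), named for a bone morphogenetic protein, held 1 and 33 migrated reads against 5 and 88 non-migrated reads. In set 2 its share was 0.43 of the non-migrated one, with a counting interval of 0.28 to 0.65. The fitted log2 difference was -1.12 ± 0.33, with -1.10 in set 1 and -1.12 in set 2. Without the non-migrated library of set 2 it was 0.14. Fits with a library left out had no replicate block, so the difference between the sets enters their values. The KRTAP16-1 window (chr17:39465405-39467505), of a hair keratin-associated protein gene, held 2 and 32 migrated reads against 11 and 79 non-migrated reads, a log2 difference of -1.08 ± 0.33. The KCNG1 window, of another potassium channel modifier subunit, held 0 and 27 migrated reads against 5 and 67 non-migrated reads, and in set 1 the counting interval of the ratio reached from 0 to 2.04. The remaining lower windows were those of DGAT1, which completes triglyceride synthesis, SDHAF1, an assembly factor of succinate dehydrogenase, PTGIS, the prostacyclin synthase, SLC3A1, a subunit of an amino acid transporter, and LRRC29, ITPRIPL1, TREML2, AC022413.1 and a Y_RNA copy. Their log2 differences lay between -1.16 and -1.01.

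**Figure D2:**
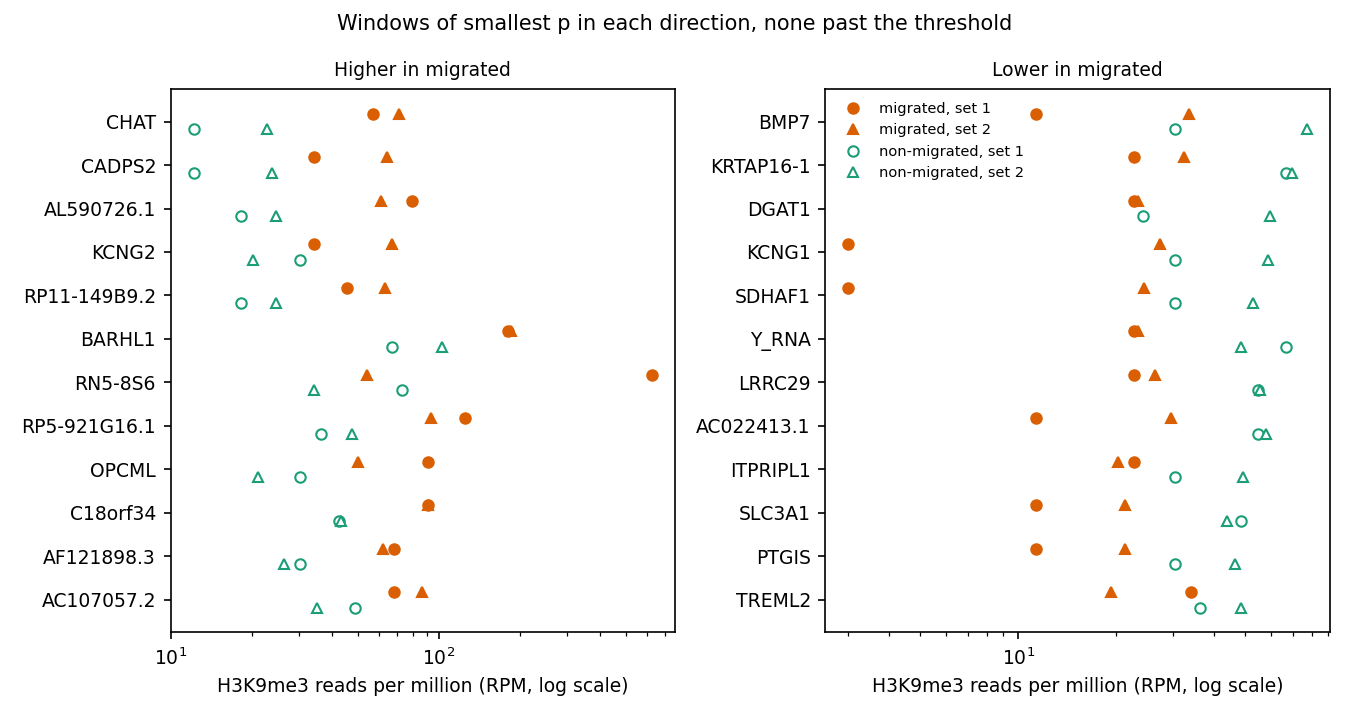
H3K9me3 level in RPM, reads scaled to the promoter-window reads of each library (log axis), for the 12 windows of smallest p in each direction, migrated and non-migrated, both sets; libraries with 0 reads are drawn at the left edge. In the CHAT row the migrated points lie at 56.8 and 71.1 and the non-migrated points at 12.1 and 22.9.

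The promoter windows with the most H3K9me3 reads differed by less and had more reads behind them. They were ranked without input, so some owe their place in part to high input. Input was 105.1 to 162.3 RPM for DHX32, for example, and 30.9 to 65.9 RPM for RN5-8S2. Of the 12 windows of usual width with the most H3K9me3 reads, all had a fitted log2 difference above 0, between 0.04 and 0.90 (8 of them below 0 under the deposited constants), and 7 of the 12 were above 0 in both sets. Among the 2260 windows in the richest 10% of both rankings, 80.1% had a fitted difference above 0 and 48.5% were above 0 in both sets. These windows and the 12 were chosen by reads of the libraries being compared, so ranking and values are not kept apart here. None of the 12 passed limma's test (adjusted p between 0.968 and 0.995). The HFM1 window (chr1:91852849-91854949), of a helicase that acts in meiosis, was by far the fullest, with 148 and 2451 migrated reads against 272 and 2173 non-migrated reads. Its input was also high, at 407.3 and 509.6 RPM in migrated cells and 456.0 and 529.2 in non-migrated cells. The log2 difference was 0.21 ± 0.21, -0.11 in set 1 and 0.45 in set 2.

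Iroquois genes encode homeobox factors of tissue patterning. The IRX4 window (chr5:1885446-1887546) held 20 and 466 migrated reads against 24 and 386 non-migrated reads, a log2 difference of 0.54 ± 0.23. The IRX1 window (chr5:3600202-3602302) held 27 and 430 against 31 and 391, a log2 difference of 0.46 ± 0.23. Both were above 0 in both sets. Without the migrated library of set 2 they were -0.47 for IRX4 and -0.12 for IRX1. That fit had no replicate block, so these values also hold the difference between the sets. The LINC00273 window (chr16:33962403-33964503) held 108 and 838 migrated reads against 112 and 753 non-migrated reads, with a log2 difference of 0.55 ± 0.20; it overlaps the RN5-8S2 window, and its reads are uncertain because 5.8S ribosomal RNA has near-identical copies. The AL928646.1 window (chrX:108295553-108297653) had the largest difference of the 12 and the least even one. Its reads were 67 and 346 in migrated cells against 116 and 141 in non-migrated cells, so that its log2 difference was -0.02 in set 1 and 1.57 in set 2, and its fitted value of 0.90 ± 0.33 was 0.40 ± 0.42 with input in the fit. The window of DLG2, a synaptic scaffold protein (chr11:85193012-85195112), held 42 and 565 migrated reads against 70 and 421 non-migrated reads, a log2 difference of 0.48 ± 0.23.

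Genes of the H3K9 methylation machinery and of the epithelial and mesenchymal states were looked up by name in their most-read windows, and none passed limma's test (adjusted p between 0.968 and 0.996). Among the writers, the SUV39H1 window (chrX:48551945-48554045) held 1 and 52 migrated reads against 5 and 58 non-migrated reads, a log2 difference of 0.02 ± 0.36. EHMT1, whose product with that of EHMT2 writes the mono- and dimethyl forms, had 7 and 142 migrated reads against 9 and 143 non-migrated reads, a log2 difference of 0.29 ± 0.27. The values for SETDB1 and EHMT2 were -0.74 ± 0.50 and -0.25 ± 0.45. The HP1 genes CBX1 and CBX5 stood at 0.59 ± 0.40 and -0.60 ± 0.40, and the demethylase genes KDM4A and KDM4C at -0.94 ± 0.52 and -0.30 ± 0.49. All of these lie within 2 standard errors of 0.

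CDH1, the epithelial cadherin (chr16:68769128-68771228), held 13 and 121 migrated reads against 14 and 151 non-migrated reads, a log2 difference of 0.10 ± 0.28 with opposite signs in the sets. CDH2, the neural cadherin that mesenchymal cells carry (chr18:25757310-25759410), held 11 and 105 migrated reads against 7 and 84 non-migrated reads. In RPM the level was 125.0 and 106.6 in migrated cells against 42.5 and 73.9 in non-migrated cells. The log2 difference was 0.73 ± 0.30. The windows named for the transcription factors ZEB1, ZEB2 and TWIST1 gave -0.28 ± 0.35, 0.15 ± 0.42 and -0.56 ± 0.34, and that for the intermediate filament gene VIM 0.44 ± 0.41. NOTCH1, a receptor, stood at -0.70 ± 0.38. The collagenase gene MMP1 and the gelatinase genes MMP2 and MMP9 stood at -0.06 ± 0.45, -0.61 ± 0.35 and 0.24 ± 0.35, and the basal keratin genes KRT5 and KRT14 at -0.05 ± 0.41 and 0.06 ± 0.44. A window carries the name of a gene that overlaps it and can lie on the other strand. Its value then need not be that of the gene's own promoter. Among others, this holds for the windows of VIM, BMP7, DLG2, ZEB1, ZEB2, TWIST1, NOTCH1, EHMT2, KDM4C, CADPS2, IRX1 and IRX4. The windows of SUV39H2, TRIM28, KDM4B, SNAI1, SNAI2, HES1 and ACTB had too few reads to be tested, with at most 16 reads in any library, and CBX3, MMP14 and GAPDH were not analysed here.

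Gene groups were compared with the median of all genes, each gene being represented by its most-read window. Of 15842 genes tested, 0 were called (0% in each direction), the median log2 difference was 0.03 and 52.9% lay above 0; in each of the 29 lists 0 members were called. The C2H2 zinc finger genes of chromosome 19 had 210 of 224 genes tested, a median of 0.13, and 146 of the 210 above 0. They are heavily marked, with 115 of 224 (51.3%) in the richest 10% of both rankings. Their pooled share was 1.72% of migrated reads against 1.56% of non-migrated reads in set 1, and 1.88% against 1.69% in set 2. These are log2 ratios of 0.13 ± 0.05 and 0.15 ± 0.01 (counting error), beside 0.18 and 0.16 for all windows of the same H3K9me3 level and input ratios of -0.08 and -0.10. The list thus did not lie above other promoters as rich in the mark, its ratios being lower by about 1 counting error in set 1 and by less in set 2. Examples are ZNF471 (21 and 206 migrated reads against 10 and 165 non-migrated reads, log2 0.84 ± 0.30) and ZNF493 (16 and 137 against 15 and 104, log2 0.72 ± 0.26). Zinc finger genes of other chromosomes had pooled log2 ratios of 0.04 ± 0.06 and 0.03 ± 0.02.

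Imprinted genes, which are expressed from 1 parental copy, had the highest median of the lists, 0.31 over 23 of 26 genes tested, with 20 of 23 above 0. They took 0.344% of migrated reads against 0.273% of non-migrated reads in set 1 and 0.578% against 0.474% in set 2. These pooled shares weigh each gene by the reads of its window, so wide windows with many reads count for most. The log2 ratios, 0.34 ± 0.11 and 0.29 ± 0.03, stand beside 0.24 and 0.19 for windows of the same level. The input ratios of the list were 0.19 in set 1 and 0.03 in set 2, and their part in the result was not tested. The MAGEL2 window (chr15:23891075-23893175), in the Prader-Willi region, held 8 and 175 migrated reads against 6 and 133 non-migrated reads, a log2 difference of 0.73 ± 0.28. It was 1.16 in set 1 and 0.68 in set 2, and -0.30 without the migrated library of set 2, in a fit without the replicate block. That of ATP10A (chr15:26108442-26110542), a phospholipid transporter of the neighbouring region, held 14 and 182 against 20 and 133, a log2 difference of 0.63 ± 0.26, or 0.25 ± 0.37 with input in the fit. Neither passed limma's test (adjusted p = 0.968). The MAGEL2 levels were 90.9 and 177.7 RPM in migrated cells against 36.4 and 116.9 in non-migrated cells. They overlapped across the sets, while within each set the migrated level was the higher.

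Neuronal genes had a median of 0.25 over 35 of 39 genes tested, with 25 of 35 above 0. Their pooled log2 ratios were 0.14 ± 0.13 in set 1 and 0.35 ± 0.04 in set 2, beside 0.08 and 0.11 for windows of the same level and input ratios of -0.13 and 0.09. The window of DPP6, a subunit partner of potassium channels (chr7:153582182-153584282), held 10 and 152 migrated reads against 8 and 98 non-migrated reads, a log2 difference of 0.94 ± 0.27. CNTN4, an axonal adhesion protein, had 0.78 ± 0.31, but its input differed by 0.89 ± 0.41 in the same direction, and with input in the fit its value was -0.08 ± 0.53. CACNA1E, a calcium channel subunit, had 0.65 ± 0.30. These medians move with the scaling and with the library left out. Scaled by the authors' deposited constants, which put the median tested window at -0.30, they were -0.23 for the chromosome 19 zinc finger genes, 0.01 for imprinted genes and -0.10 for neuronal genes. Without the migrated library of set 2 the median of the chromosome 19 zinc finger genes was -0.13 and that of imprinted genes -0.34, and for neuronal genes it was 0.11. That fit had no replicate block, so these medians also hold the difference between the sets.

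Other lists lay below 0. Cytochrome P450 genes, which oxidise drugs, steroids and retinoids, had a median of -0.20 with 8 of 32 above 0, and pooled log2 ratios of -0.20 ± 0.17 and -0.21 ± 0.06. Keratin-associated protein genes had -0.43 ± 0.13 and -0.14 ± 0.04, with input at -0.24 in set 1 and -0.01 in set 2, and the Notch pathway -0.82 ± 0.29, on 33 migrated reads against 109 non-migrated reads, and -0.17 ± 0.07. Windows of the same level had 0.01 and -0.02 beside cytochrome P450 genes and -0.03 and -0.001 beside keratin-associated protein genes. Beside the Notch pathway they had -0.09 and -0.15, so its set 2 ratio was near that of its level. Other lists had opposite signs in the 2 sets. Olfactory receptor genes stood at -0.28 ± 0.06 in set 1 and 0.13 ± 0.02 in set 2, and their input moved with them, at -0.14 and 0.16. Clustered protocadherins stood at -0.28 ± 0.21 and 0.25 ± 0.07, with input at -0.38 and 0.01, and cytosolic ribosomal protein genes at 0.33 ± 0.15 and -0.19 ± 0.05. Epithelial adhesion genes stood at 0.36 ± 0.20 and -0.11 ± 0.06, with input at -0.03 and -0.18, and mesenchymal genes at 0.41 ± 0.21 and -0.02 ± 0.07. In all, 4 of 29 lists were above 0 in both sets, 8 below in both, and 17 differed in sign between the sets. The part of input in the ratios of these lists was not tested.

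**Figure D3:**
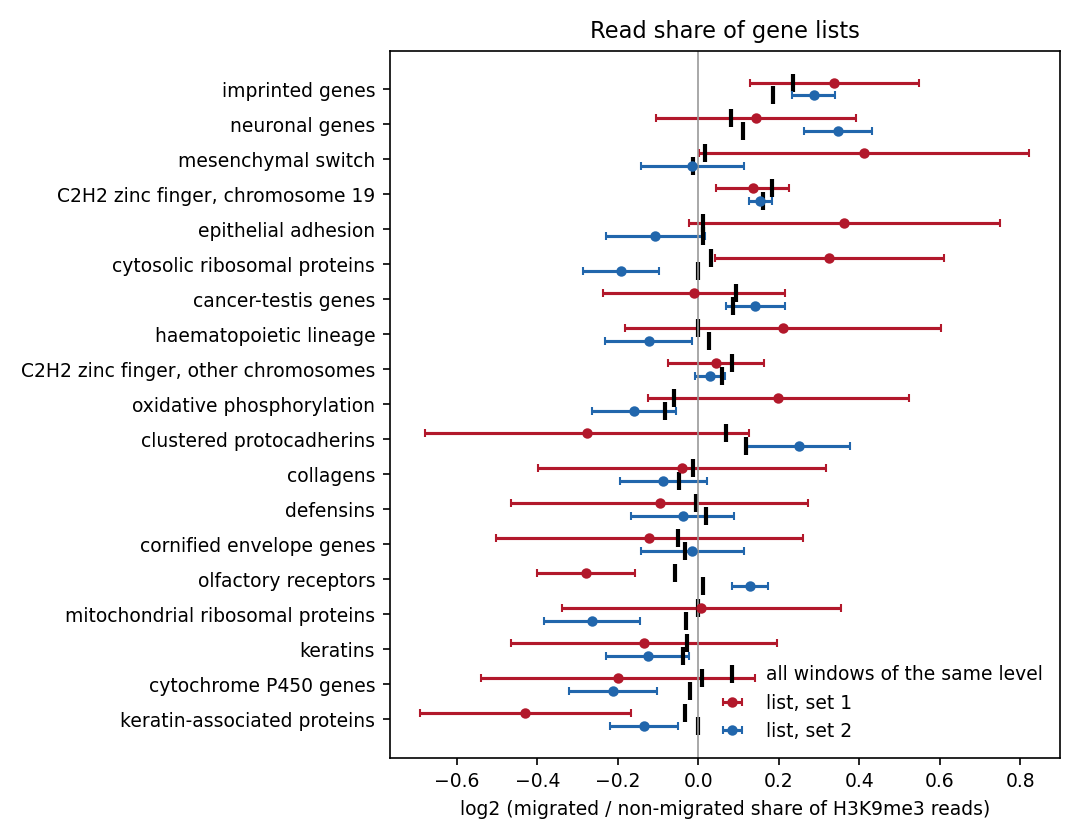
Pooled log2 ratio of read shares, migrated over non-migrated, for the 19 gene lists with at least 70 migrated reads in set 1; points are the 2 replicate sets, bars are 95% counting intervals, and black ticks are all windows of the same H3K9me3 level. Imprinted genes stand at 0.34 and 0.29, and keratin-associated proteins at -0.43 and -0.14.

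Summed by chromosome, few differences held in both sets. Of 23 chromosomes, 6 had the same sign in both, with X, 10 and 21 higher in migrated cells and 2, 12 and 17 lower. Chromosomes X and 2 were past 2 counting errors in both sets. X held 5.84% of migrated reads against 5.64% of non-migrated reads in set 1 and 6.02% against 5.43% in set 2, log2 ratios of 0.05 ± 0.02 and 0.15 ± 0.01, with input ratios of -0.03 and 0.02. Chromosome 2 held 6.12% against 6.70% and 6.04% against 6.24%, log2 ratios of -0.13 ± 0.02 and -0.05 ± 0.01; its input moved with it, at -0.09 and -0.03, and the part of input in the result was not tested. Chromosomes 16 and 19 had opposite signs in the 2 sets, with 0.16 and -0.09 for 16 and 0.16 and -0.01 for 19.

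**Figure D4:**
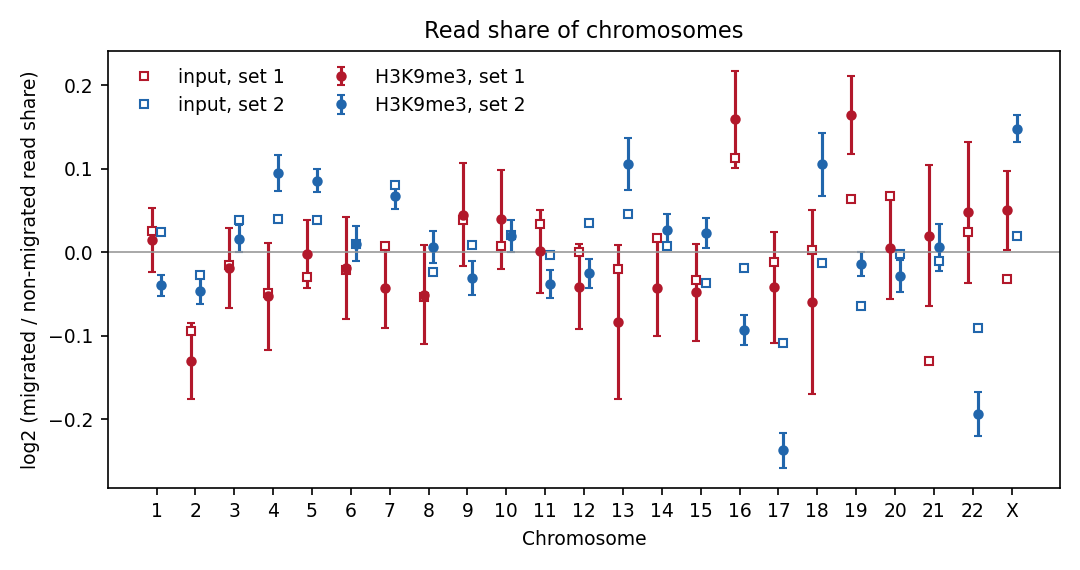
Log2 ratio of the share of H3K9me3 promoter reads, migrated over non-migrated, per chromosome and replicate set, with 95% counting intervals as bars and input ratios as open squares. Chromosome X lies above 0 in both sets (0.05 and 0.15), chromosome 2 below 0 in both (-0.13 and -0.05), and 17 of 23 differ in sign between the sets.

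Reads summed over 1 Mb bins gave 1 bin higher in migrated cells of 2821 tested (0.0354%; 65 before adjustment) and 0 lower (44 before adjustment) in limma. By its coordinates the bin lies on chromosome Y, which a cervical line is not expected to carry. The bin holds 2 windows, AC010970.1 and RN5-8S6. It held 56 and 55 migrated reads against 12 and 44 non-migrated reads, a log2 difference of 1.67 ± 0.29 (adjusted p = 0.000033), with 3.14 in set 1 and 0.52 in set 2. It rests on the repeat copy described above, and without chromosome Y and the mitochondrial genome 0 bins passed. Limma also called 0 bins higher without the replicate block, with scaling by total reads, with the deposited constants and without the migrated library of set 1, while a quasi-Poisson model called 54 bins higher and 39 lower.

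The 2 sets did not rank the windows alike. Over the 9447 tested windows with a mean of at least 20 reads, the log2 differences of set 1 and set 2 had a correlation of r = 0.02, and 50.4% had the same sign. These windows share their libraries and are not replicates. Over 9004 windows that do not overlap, the SD of the difference was 1.07 in set 1, where counting alone gives 0.98, and 0.37 in set 2, where counting gives 0.28. In set 2, neighbouring windows within 20 kb had correlated differences (r = 0.26 over 1469 pairs, input 0.09), while in set 1 r was 0.02 (input -0.04).

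**Figure D5:**
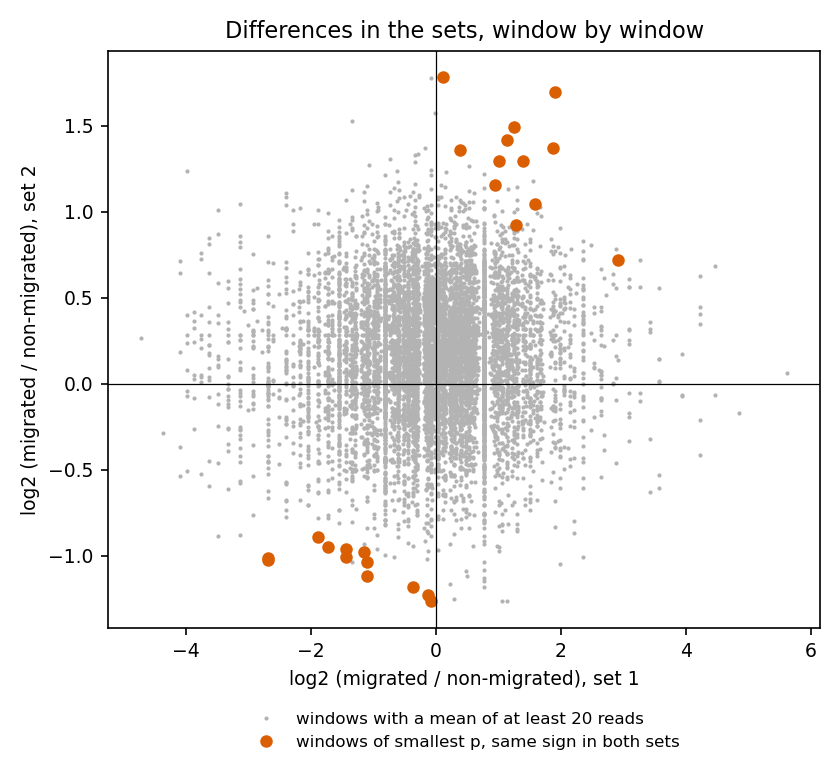
Log2 difference of set 2 against that of set 1, migrated over non-migrated, for windows with a mean of at least 20 reads, with the windows of smallest p and the same sign in both sets in orange. The points spread more widely in set 1 (SD 1.07) than in set 2 (SD 0.37), with r = 0.02 between them.

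The input libraries, compared in the same way, gave 1 window higher in migrated cells of 36383 tested (0.00275%; 797 before adjustment) and 0 lower (706 before adjustment). It was the window of BMP2 (chr20:6746311-6748411), a bone morphogenetic protein, with 27 and 33 input reads in migrated cells against 3 and 9 in non-migrated cells, a log2 difference of 1.96 ± 0.40 (limma, adjusted p = 0.027). With input subtracted in a fit of all 8 libraries, limma called 0 of 36440 windows in either direction, with 652 higher and 1079 lower before adjustment.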

How the data were processed

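The authors deposited log2 values of promoter windows (hg19), per the file headers; FastQC 0.11.5, Bowtie2 2.2.9 and SAMtools 1.3 are named in the submitters' processing notes, and no read counter is named in these sources. Each library's deposited log2 values equal log2 of a whole read count plus a constant, with empty windows entered as 0.9. With the constant removed, 100% of values were whole within 0.01, and these reads were used.

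Library sizes were scaled by trimmed means of M values (30% of ratios and 5% of levels trimmed). Windows were kept that reached, in 2 libraries, the level of 10 reads at median library size, with 15 reads or more in total. Limma 3.58.1 (R 4.3.3) was fitted to log2 of reads plus a pseudocount of 0.5 per library size, with the replicate set as a block and a Benjamini-Hochberg adjusted p of 0.05 as threshold. The planned weights, from the trend of the residual spread, made false calls on simulated libraries of these depths. Weights from counting error plus a common spread, which kept their error rate there, took their place, and the planned weights became an alternative. The simulation gave all libraries the same spread, as these weights do, so it cannot show how they fare where spreads differ. For set 1 the window spread could not be estimated, and that of set 2 was used. Beyond counting, the SD of the log2 difference was 0.43 in set 1 and 0.25 in set 2. The series describes the sets as paired; deviations from the group means of libraries with the same set number had r = 0.19 across windows. Set 1 differs from set 2 in kit and depth as well, and intervals cover counting error only.

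Named windows were the 12 of smallest p per direction of like sign in sets 1 and 2 and at least 20 reads on average, the 12 with the most reads, fixed genes and up to 4 members per list. Members, lists and rules were chosen with earlier results of these data known. Alternatives covered scaling, filter, weights, model, pseudocount, ranking, block and each library left out. The fits with a library left out did not include the replicate block.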

Additional observations from a re-analysis of the deposited data

How the results depend on the processing

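Depth limits single windows most in set 1, where the median well covered window held 4 migrated reads against 8 non-migrated reads and counting alone gives the log2 difference an SD of 0.98. The larger top share in migrated cells held under every alternative run, at log2 0.20 to 0.22 in set 1 and 0.18 to 0.19 in set 2; without the 10% of windows with the most input reads it was 0.224 in set 1 and 0.194 in set 2, and ranked by the migrated library of the other set it was 0.175 in set 2. Without the replicate block, limma called 0 windows in each direction (274 higher and 297 lower before adjustment) and 0 bins in each direction, so the chromosome Y bin was lost without the pairing.

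Windows called higher in migrated cells numbered 1 with scaling by total reads (RN5-8S6), 13 with weights from the residual trend, and 0 to 12 with a library left out, namely 12 without the non-migrated library of set 2, 2 without that of set 1 and 1 without the migrated library of set 2; windows called lower numbered 0 to 5, the 5 without the migrated library of set 2. With a library left out, 1 fraction keeps 1 library, assumed to vary like the other. The replicate set was not in these fits, so their values mix the difference between fractions with that between sets. Bins called higher numbered 0 with scaling by total reads, with the deposited constants and without chromosome Y and the mitochondrial genome, 2 with weights from the residual trend, 54 under the quasi-Poisson model and 0 to 2 with a library left out (0 without the migrated library of set 1, 2 without the non-migrated library of set 2). Bins called lower numbered 1 without weights and 39 under the quasi-Poisson model. The cause was not tested.

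Some log2 differences changed sign. With the deposited constants, which shift the median tested window to -0.30, they were HFM1 -0.381, LINC00273 -0.00717, DHX32 -0.308, DLG2 -0.0207, ZNF595 -0.159, RN5-8S2 -0.0953, CD7 -0.333, RP11-308B16.2 -0.145, SUV39H1 -0.279, EHMT1 -0.0200, CDH1 -0.268, ZEB2 -0.161, MMP9 -0.100 and KRT14 -0.121. Without weights SUV39H1 was -0.490 and KRT14 -0.922, and with total reads -0.0332 and -0.00227. With a pseudocount of 2, MMP1 was 0.0153 and KRT5 0.0359. CD7 was -0.0342 under the quasi-Poisson model and -0.0226 with weights from the residual trend. In the fit with input, MMP1 was 0.108 and CNTN4 -0.0799. The ranges given next come from fits without the replicate block, so they also hold the difference between the sets. With each library left out in turn, the log2 differences ran over these ranges: BMP7 -2.32 to 0.144, DGAT1 -1.27 to 0.00688, HFM1 -0.294 to 0.611, DHX32 -0.367 to 0.545, AL928646.1 -0.484 to 1.89, IRX1 -0.117 to 1.21, CD7 -1.16 to 1.70, RP11-308B16.2 -0.945 to 1.12, IRX4 -0.469 to 1.61, SUV39H1 -1.78 to 0.740, EHMT1 -0.628 to 1.41, KDM4C -1.04 to 0.317, CDH1 -0.0422 to 0.691, VIM -0.374 to 0.643, ZEB1 -1.06 to 1.11, ZEB2 -0.00143 to 0.949, NOTCH1 -1.06 to 1.17, MMP1 -2.41 to 0.822, KRT5 -2.92 to 0.870, KRT14 -2.60 to 0.650, MAGEL2 -0.301 to 2.26, SGCE -0.531 to 1.12, CYP26A1 -1.25 to 0.105, CYP27B1 -1.25 to 1.24 and NUMB -1.53 to 0.331. Of all alternatives for named windows, 1228 kept sign and side of the threshold, 54 changed sign and 12 passed the threshold.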

Other observations

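The Iroquois and Prader-Willi windows below were chosen after their values were seen, and none passed limma's test. As background, 53.1% of all 22355 tested windows had a fitted log2 difference of migrated over non-migrated H3K9me3 above 0. In both sets, 26.7% were above 0. Among the 2260 windows in the richest 10% of both rankings, which the same libraries picked, these shares were 80.1% and 48.5%. The 6 tested windows of IRX1, IRX2 and IRX4 on chromosome 5 lay above 0 in both sets, between 0.33 and 0.76. Without the migrated library of set 2, in a fit without the replicate block, the most-read windows of IRX1 and IRX4 stood at -0.12 and -0.47. On chromosome 16, IRX5 stood at 0.42 and IRX3 at -0.58.

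In the Prader-Willi and Angelman region of chromosome 15, 20 of 22 tested windows of SNHG14, a long noncoding RNA that hosts small nucleolar RNAs, lay above 0, with a median of 0.41, and 14 did so in both sets. Its widest window spans 34342 bases and held 166 and 3284 migrated reads against 244 and 3084 non-migrated reads, a log2 difference of 0.30 ± 0.19. All 4 windows of SNRPN (median 0.32) lay above 0, 2 of them in both sets, and all 4 of ATP10A (median 0.66), 3 of them in both sets. Both SNURF windows lay above 0 (0.04 and 0.38), 1 of them in both sets. MAGEL2 (0.73) and UBE3A (0.48) were above 0 in both sets, UBE3A on 1 migrated read against 0 non-migrated reads in set 1. MKRN3 (0.81) and NDN (0.39) were below 0 in set 1, at -1.35 and -0.66. A few of these windows overlap and share reads.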
